A study of Homo sapiens with 8 samples.

Results

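The Notch receptors, ligands and target genes described here are 10 of the 39533 genes in the count table, taken by symbol: the receptors NOTCH1, NOTCH2 and NOTCH3, the ligands JAG1, JAG2 and DLL1, and the targets HES1, HES4, HEY1 and NRARP. RNA was measured in 8 libraries of HCT116, a human colorectal cancer cell line, taken from a model in which circulating tumour cells return to the tumour they left. Self-seeded tumour cells (TSC, n = 3) and circulating tumour cells (CTC, n = 2) were set against cells of the primary tumour (PC, n = 3). The labels place TSC and PC in the primary tumour and CTC in blood, give no treatment, time or genetic change, and do not say whether replicates came from separate animals, so p-values measure the spread between these libraries, which may be technical. All 3 groups come from a single line, and the series title names liver cancer while the labels name a colorectal line.

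The members were chosen by symbol with their levels and fold changes in these libraries already known, in all 3 comparisons of groups, and no threshold was set. The members' values are therefore a description, and the adjusted p printed for a member is its place in a test of all 14255 genes with enough counts, not independent evidence. Of the 10 members, 8 entered that test. HEY1 had too few counts and DLL1 had 0 counts in all 8 libraries.

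Notch signalling passes between touching cells. A ligand of the Jagged or Delta family on one cell pulls on a receptor on its neighbour, proteases then cut the receptor, and its inner part moves to the nucleus, where it joins the DNA-binding protein RBPJ and switches on genes such as HES1. In the intestinal epithelium the pathway is known for keeping progenitor cells dividing and for holding back the secretory lineage, through HES1 acting on ATOH1.

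HES1 is the textbook direct target, so its promoter is printed beside that of HES4, its closest relative among the members, and that of JAG1, whose level followed HES1 most closely among the members. The sequences are the 120 bases before the RefSeq start (build GRCh38.p14), read 5′ to 3′ on the gene's strand, for HES1 at chr3:194136028-194136147 (plus strand), HES4 at chr1:1000098-1000217 (minus strand) and JAG1 at chr20:10674000-10674119 (minus strand). Capitals mark matches to GTGGGAA, a motif bound by RBPJ, or to its shorter core TGGGAA, which lies inside it.
HES1: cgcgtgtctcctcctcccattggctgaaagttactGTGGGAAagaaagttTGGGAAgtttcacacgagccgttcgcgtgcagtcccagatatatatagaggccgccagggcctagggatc
HES4: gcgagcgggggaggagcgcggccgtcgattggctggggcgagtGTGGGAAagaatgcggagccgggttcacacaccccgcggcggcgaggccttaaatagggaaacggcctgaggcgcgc
JAG1: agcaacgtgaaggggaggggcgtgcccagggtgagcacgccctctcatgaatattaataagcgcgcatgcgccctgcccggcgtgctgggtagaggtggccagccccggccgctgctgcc
HES1 held GTGGGAA from position −85 to −79 and a further TGGGAA from −70 to −65, both on the gene's own strand, counted from −1 at the base before the start. HES4 held GTGGGAA once, from −77 to −71. Within 250 bases before the start, searched on both strands, GTGGGAA was in the promoters of these 2 genes and in none of the other 6 members with an entry (NOTCH1, NOTCH2, NOTCH3, JAG1, JAG2 and NRARP), and in 5.43% of 35116 promoters. A GTGGGAA with at least 1 more TGGGAA in the same window, on either strand and at any spacing, was found in 1.18%, HES1 among them. Other forms of the motif were not searched. A match is a string of letters and not a shown binding site.

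Total counts ran from 4578869 to 14717833 in TSC, were 957607 and 10524069 in CTC replicates 1 and 2, and ran from 10864761 to 19264595 in PC. Levels are given in CPM, a gene's count scaled to a common library total and to library makeup. In such bulk RNA, fewer cells of a type and less RNA per cell cannot be told apart. A count of 0 allows up to 2.99 CPM in CTC replicate 1 and at most 0.668 CPM in the other libraries, counting error alone. EPCAM, an epithelial marker, was counted in every library. Of 10 epithelial markers, 1, CLDN7, was at 0 throughout, and VIL1 had 0 to 4 counts per library. The 10 markers summed to 8687 to 9652 CPM in TSC, 5516 to 8097 CPM in CTC and 6440 to 8626 CPM in PC. Of the 8 tested, 0 were called in any comparison of groups. The 1298 tested genes richest in GC (at least 61.6% of the longest transcript) stood below their mean over the 8 libraries in TSC replicate 1 (median −0.25 on the log2 scale) and in CTC replicates 1 and 2 (−0.49 and −0.21), and above it in the other libraries (0.10 to 0.36). NOTCH1, NOTCH3, JAG2, HES4 and NRARP belong to those genes (62.9% to 73.9%), whereas NOTCH2, JAG1 and HES1 do not (49.4% to 49.9%).

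Against PC, the Notch target HES1 fell in both TSC and CTC, and the ligand JAG1 fell in CTC. HES1, which encodes a transcriptional repressor, was at about a 3-fold lower level in each (3.12-fold in TSC and 3.48-fold in CTC). JAG1 was 2.40-fold lower in TSC, which missed the threshold of an adjusted p under 0.05, and 2.72-fold lower in CTC. The receptors NOTCH1, NOTCH2 and NOTCH3, the ligand JAG2 and the targets HES4 and NRARP were not called against PC by edgeR. In TSC against PC 1 of 8 tested members was called, lower, beside 0.505% of all tested genes called (0.224% higher and 0.281% lower), and in CTC against PC 2 of 8, both lower, beside 3.92% (1.4% higher and 2.52% lower). In TSC against PC 3 members (JAG1, HES1 and NRARP) had all TSC libraries below all PC libraries and 0 had them above, beside 9.9% and 8.96% of all tested genes. In CTC against PC 7 members, all but NOTCH2, had both CTC libraries below all PC libraries and 0 had them above, beside 24.7% and 19.9%. Since both comparisons share the PC libraries, they are not independent of each other, and since the members were chosen with these fold changes known, nothing is read from these counts.

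**Figure D1:**
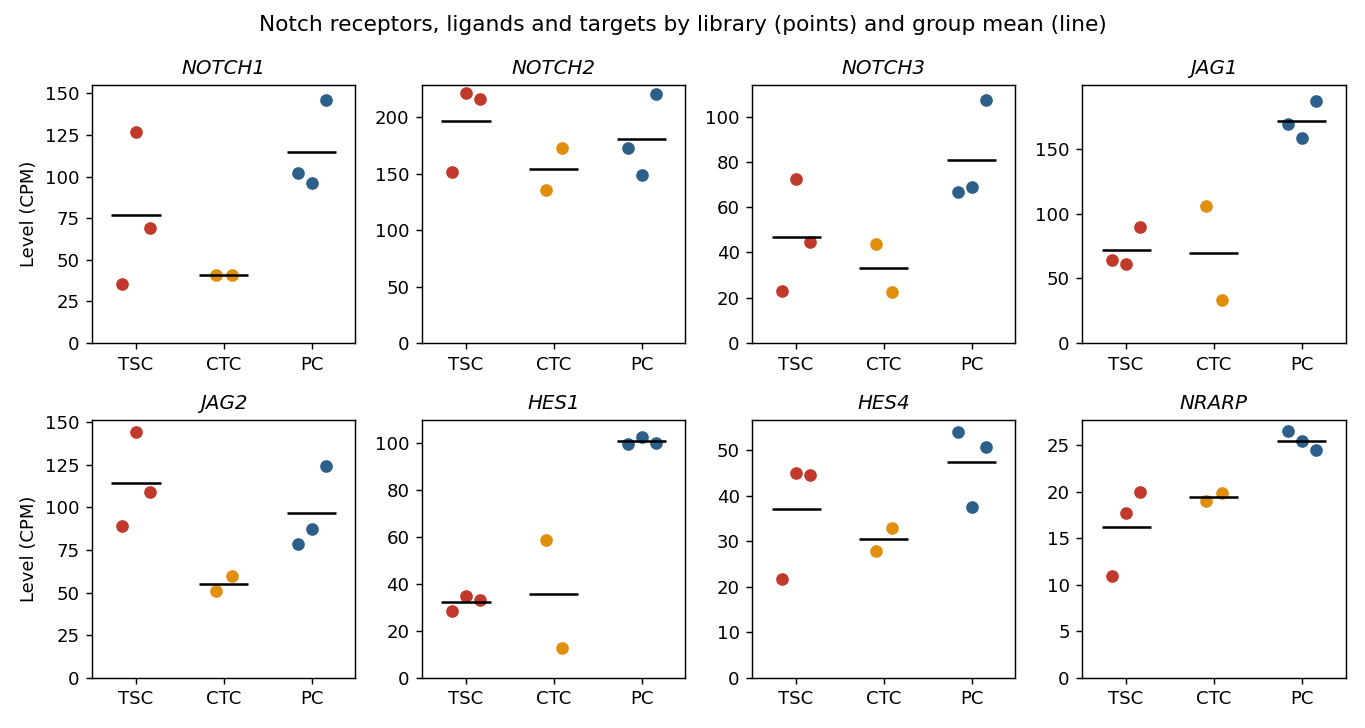
Level in CPM (linear axes from 0) of the 8 tested members in each library, one panel per gene, with points for libraries and a line for the group mean. In TSC the HES1 points lie between 28.5 and 35.0 CPM, in PC between 99.5 and 103 CPM, while the 2 CTC libraries stand apart from each other for HES1 and JAG1.

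The receptors NOTCH1 and NOTCH3 varied widely among TSC libraries. NOTCH1 was at 35.4, 127 and 69.0 CPM in TSC replicates 1 to 3, at 40.9 and 40.7 CPM in CTC and at 102, 95.9 and 146 CPM in PC. TSC replicate 2 reached into the range of PC, whereas both CTC libraries lay below all PC libraries. The log2 fold change was −0.56 ± 0.32 (SE) in TSC against PC (adjusted p = 0.595) and −1.49 ± 0.41 in CTC against PC (adjusted p = 0.0535), so neither was called. NOTCH3, whose own gene is a Notch target in several tissues, was at 23.2, 72.3 and 44.7 CPM in TSC, at 43.9 and 22.5 CPM in CTC and at 66.6, 69.2 and 107 CPM in PC. It had the same order of TSC libraries as NOTCH1, with replicate 1 lowest and replicate 2 highest. Its log2 fold changes were −0.78 ± 0.33 (adjusted p = 0.446) for TSC against PC and −1.43 ± 0.43 (adjusted p = 0.0701) for CTC against PC. With a correction for GC content and transcript length, the CTC values of NOTCH1 and NOTCH3 were −0.64 (adjusted p = 0.118) and −0.61 (adjusted p = 0.203). The median over all tested genes in that fit was 0.13. What part the GC difference between libraries had in the deposited counts was not tested.

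NOTCH2 did not share this pattern. It was at 152, 222 and 217 CPM in TSC, at 136 and 173 CPM in CTC and at 173, 149 and 221 CPM in PC, with overlapping ranges in all 3 groups. Its log2 fold changes were 0.13 ± 0.20 in TSC against PC (adjusted p = 0.877) and −0.22 ± 0.23 in CTC against PC (adjusted p = 0.597). Reads of NOTCH2 can be shared with its near-identical partial copies: NOTCH2NLA, NOTCH2NLB, NOTCH2NLC and NOTCH2NLR together held 2.12% to 5.17% of the counts of the 5 genes in 7 libraries and 12.3% in CTC replicate 1, so its level there is uncertain. Among the counts of the 3 receptors in a library, NOTCH2 took 72.2%, 52.7% and 65.6% in TSC, 61.5% and 73.2% in CTC, and 50.6%, 47.4% and 46.5% in PC. Every TSC and CTC share was above every PC share, TSC replicate 2 by a small margin. The NOTCH1 share was 16.8%, 30.1% and 20.9% in TSC, 18.6% and 17.3% in CTC, and 29.9%, 30.6% and 30.8% in PC. By these counts TSC replicate 2 was nearest to PC. NOTCH1 and NOTCH3 belong to the GC-rich genes and NOTCH2 does not. The GC-rich genes stood below their mean in TSC replicate 1 and both CTC libraries, and above it in TSC replicates 2 and 3 and in PC. What part this difference had in the receptor shares was not tested.

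The ligands JAG1 and JAG2 encode close relatives that bind the same receptors. JAG1 was at 64.0, 61.0 and 89.7 CPM in TSC, at 106 and 32.9 CPM in CTC, and at 170, 158 and 187 CPM in PC. All TSC and CTC libraries lay below all PC libraries, and the 2 CTC libraries lay on either side of the TSC range. The log2 fold change was −1.26 ± 0.30 in TSC against PC (adjusted p = 0.0996), and −1.44 ± 0.37 in CTC against PC (adjusted p = 0.0432). JAG1 passed in TSC against PC when only the libraries of these 2 groups were fitted (adjusted p = 0.00859), with the replicate number as a block (0.0492) and by DESeq2 (0.00287), with adjusted p from 5.62e-08 to 0.326 over all settings tried. In CTC its call was lost without CTC replicate 2 (log2 −0.71, adjusted p = 0.32), and without TSC replicate 3 or any PC library (adjusted p from 0.0696 to 0.129), and the value was −2.39 without CTC replicate 1.

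JAG2 was at 89.1, 144 and 109 CPM in TSC, at 50.9 and 59.4 CPM in CTC and at 78.5, 87.3 and 124 CPM in PC. Its TSC and PC ranges overlapped, and both CTC libraries lay below all others. The log2 fold change was 0.24 ± 0.22 in TSC against PC (adjusted p = 0.75), −0.79 ± 0.26 in CTC against PC (adjusted p = 0.0916) and 1.03 ± 0.26 in TSC against CTC (adjusted p = 0.0848). After the GC and length correction the CTC against PC value was −0.03 and that of TSC against CTC 0.51 (adjusted p = 0.954 and 0.276). The medians over all tested genes in that fit were 0.13 and −0.04. JAG1 made up 41.8%, 29.7% and 45.1% of the JAG1 and JAG2 counts in TSC, 67.5% and 35.6% in CTC, and 68.4%, 64.5% and 60.1% in PC. JAG2 therefore had more counts than JAG1 in every TSC library and fewer in every PC library, with CTC replicate 1 like PC and CTC replicate 2 within the TSC range. The widest Wilson interval of these shares, for CTC replicate 1, ran from 59.8% to 74.3% (95%, counting error only). JAG2 belongs to the GC-rich genes and JAG1 does not, and the part of GC in these shares was not tested.

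**Figure D2:**
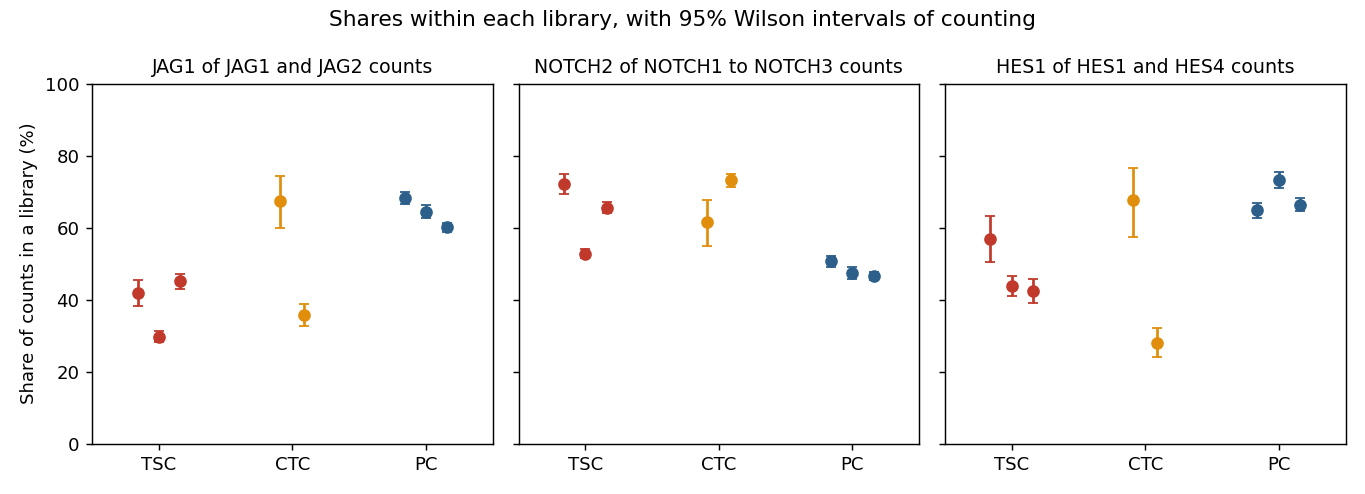
Share of counts within each library (%), for JAG1 among JAG1 and JAG2, NOTCH2 among the 3 receptors and HES1 among HES1 and HES4, by group, with 95% Wilson intervals for counting. The JAG1 share is 29.7% to 45.1% in TSC and 60.1% to 68.4% in PC, and the CTC libraries sit at 67.5% and 35.6%.

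DLL1, a Delta ligand, was listed at 0 in all libraries. The gene on chromosome 6 (170282206 to 170291078, hg38) overlaps FAM120B, which had 0 to 4 counts, so the 0 of DLL1 may not be read as silence. Of the other Delta ligands, DLL3 had 0 or 1 counts per library, and DLL4, the ligand of growing vessels, had 2 to 37 counts and was not called (log2 −0.31 ± 0.65 in TSC against PC, adjusted p = 0.912). The vessel markers PECAM1 and CDH5 had at most 2 counts in a library, and the summed level of 10 endothelial markers, much of it EGFL7, was 50.2 to 56.2 CPM in TSC, 43.9 to 45.4 CPM in CTC and 47.0 to 58.7 CPM in PC, with 0 of them called in either comparison with PC.

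Among the targets, HES1 (chromosome 3, 194136148 to 194138732, hg38) was at 28.5, 35.0 and 32.9 CPM in TSC, at 58.9 and 12.7 CPM in CTC and at 99.5, 103 and 100.2 CPM in PC. The 3 TSC libraries and the 3 PC libraries formed separate tight groups, and the CTC libraries fell on either side of TSC, both below PC. In means, HES1 was at 32.1 ± 3.31 CPM (SD, n = 3) in TSC and 101 ± 1.71 CPM (n = 3) in PC. The log2 fold change was −1.64 ± 0.34 in TSC against PC (adjusted p = 0.0486) and −1.80 ± 0.44 in CTC against PC (adjusted p = 0.0366). The first of these moved little when a library was left out (−1.72 to −1.59), while its adjusted p ran from 0.000413 without CTC replicate 2 to 0.227 without TSC replicate 3. It was not called without any single TSC or PC library, nor with a stricter count filter (adjusted p = 0.0652), and it was called without either CTC library. The value of CTC against PC was −2.99 without CTC replicate 1 (adjusted p = 0.000156) and −0.78 without CTC replicate 2 (adjusted p = 0.263), so its size rests on CTC replicate 2, and its call was also lost without TSC replicate 3 or any PC library (adjusted p from 0.0737 to 0.102). After the GC and length correction the values were −1.67 in TSC (adjusted p = 0.01) and −1.79 in CTC (adjusted p = 0.0191).

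HES4, a HES1 relative that humans have and mice lack, was at 21.6, 45.0 and 44.6 CPM in TSC, at 27.9 and 32.9 CPM in CTC and at 54.1, 37.5 and 50.6 CPM in PC. TSC replicate 1 was lowest, the other TSC libraries lay within the PC range, and both CTC libraries were below it. HES4 was not called in TSC (−0.34 ± 0.25, adjusted p = 0.695) or CTC (−0.61 ± 0.31, adjusted p = 0.246) against PC. HES1 held 56.9%, 43.7% and 42.5% of the HES1 and HES4 counts in TSC, 67.8% and 27.8% in CTC, and 64.8%, 73.2% and 66.4% in PC. HES4 belongs to the GC-rich genes and HES1 does not, and the part of GC in these shares was not tested. NRARP, which encodes a small protein that feeds back to restrain the Notch complex, was at 10.9, 17.7 and 19.9 CPM in TSC, at 19.0 and 19.8 CPM in CTC, and at 26.5, 25.4 and 24.5 CPM in PC. All TSC and CTC libraries lay below all PC libraries, yet NRARP was not called in TSC (−0.63 ± 0.24, adjusted p = 0.395) or CTC (−0.38 ± 0.29, adjusted p = 0.451). With the GC and length correction HES4 and NRARP had positive values in CTC against PC (0.21 each, adjusted p = 0.633 and 0.662), beside a median of 0.13 over all tested genes in that fit. HEY1, a relative of HES1 active in vessels and heart, had 1 to 6 counts per library in TSC, 0 and 0 in CTC and 3 to 22 in PC, or pooled 0.303, 0 and 0.689 CPM in this order. The pooled floor in CTC was 0.261 CPM, and 22 of the 29 PC counts came from PC replicate 3.

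**Figure D3:**
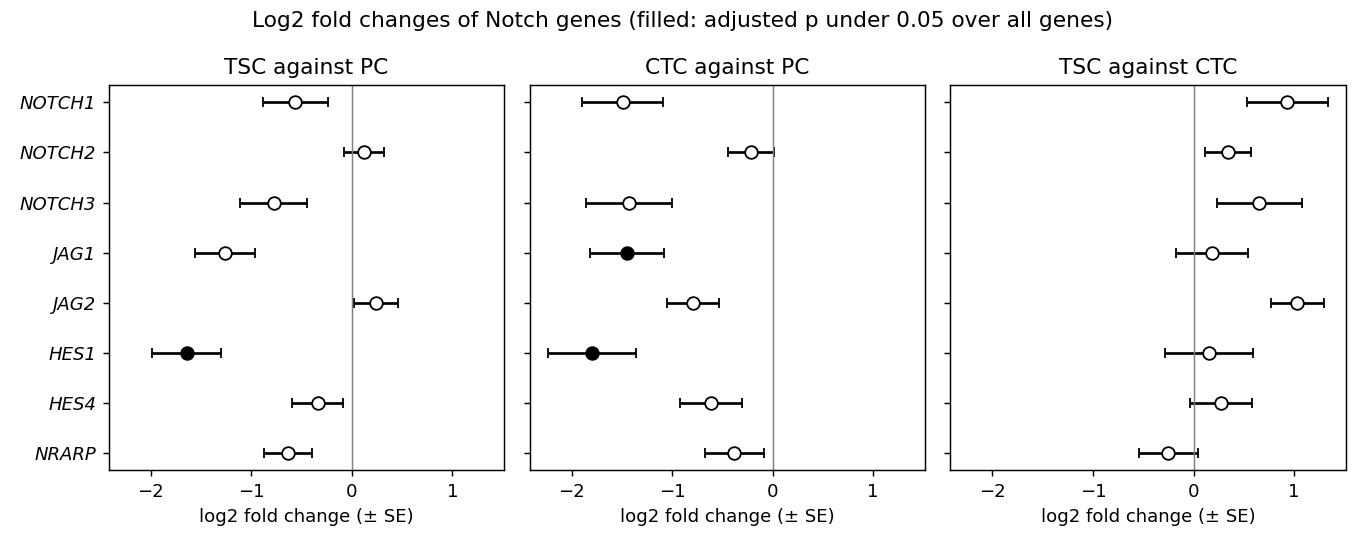
Log2 fold changes with standard errors of the 8 tested members in TSC against PC, CTC against PC and TSC against CTC, with filled points for an adjusted p under 0.05 over all genes. HES1 is filled in both comparisons with PC and JAG1 in CTC against PC, and no point is filled between TSC and CTC.

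By level per length (CPM per kilobase of exon), HES4 led in TSC at 33.2 on average, ahead of JAG2 (17.8) and HES1 (15.6), though the ranges of these neighbours in the order overlapped. In CTC the mean of HES4 (27.2) was above that of HES1 (17.3), but the ranges overlapped and HES1 was the higher in CTC replicate 1. In PC HES1 led at 48.9 CPM per kilobase, with HES4 next at 42.4 and an overlapping range, and JAG1 came next at 18.5, clear of HES4. The mean of JAG1 was below that of NRARP in TSC (7.70 against 9.14) and in CTC (7.46 against 10.96), with overlapping ranges, and JAG1 was the higher in replicate 1 of each group. NOTCH3 had the lowest mean of the 8 tested members in every group, at 4.97 in TSC, 3.53 in CTC and 8.63 in PC, with ranges that overlapped those of NOTCH1 in each group.

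Between TSC and CTC no member was called (0 of 8 by edgeR, beside 0.898% of all tested genes, 0.372% higher and 0.526% lower), with 2 members at an unadjusted p under 0.05, beside 16.7% of all tested genes, and 1, JAG2, called by DESeq2, beside 2.7%. JAG2 alone had all TSC libraries above both CTC libraries and 0 members had them below, beside 15.4% and 13% of all tested genes. The HES1 difference was 0.16 ± 0.43 (adjusted p = 0.899) and the JAG1 difference 0.18 ± 0.36 (adjusted p = 0.844), both with CTC libraries on either side of TSC. Without CTC replicate 1, HES1 was higher in TSC (1.35, adjusted p = 0.0333), and without CTC replicate 2 its value was −0.86 (adjusted p = 0.188). JAG2 and NOTCH1 were called higher in TSC without TSC replicate 1 (adjusted p = 0.0168 and 0.0254).

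HES1 and JAG1 followed each other across libraries. Among 9489 other genes (mean log2 CPM 3 or more) JAG1 ranked 2 for correlation with HES1 over the 8 libraries (Pearson r = 0.977, Spearman rho = 0.857), and HES1 ranked 3 for likeness to JAG1. The points fall into groups with different means. CTC replicate 1 was also above CTC replicate 2 for both genes (58.9 against 12.7 CPM of HES1, 106 against 32.9 CPM of JAG1). The correlation draws on both and was not split into parts within and between groups. Leaving out CTC replicate 2 and PC replicate 2, the libraries farthest from the HES1 median, gave r = 0.952. The PC libraries left still stood above all others for HES1 and JAG1, so this value holds the same difference between groups. The genes most like HES1 were ADM, which encodes the vessel peptide adrenomedullin (r = 0.977), JAG1, HMGA2, a chromatin architectural factor gene (0.970), NEK6, a mitotic kinase gene (0.969), and SMAD7, an inhibitor of TGF-β signalling (0.969). SMAD7 was at 2.90, 8.33 and 9.13 CPM in TSC, 15.96 and 1.05 CPM in CTC and 23.8, 32.0 and 35.9 CPM in PC. The genes most like JAG1 were MEX3A (0.987), which encodes an RNA-binding protein, DUSP6 (0.982), a feedback phosphatase of ERK, HES1, GLMP (0.967) and the glucose transporter gene SLC2A1 (0.966). The receptors were less like HES1, with r of 0.63 for NOTCH1, −0.08 for NOTCH2 and 0.81 for NOTCH3, and so were JAG2 (0.18), HES4 (0.46) and NRARP (0.60).

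**Figure D4:**
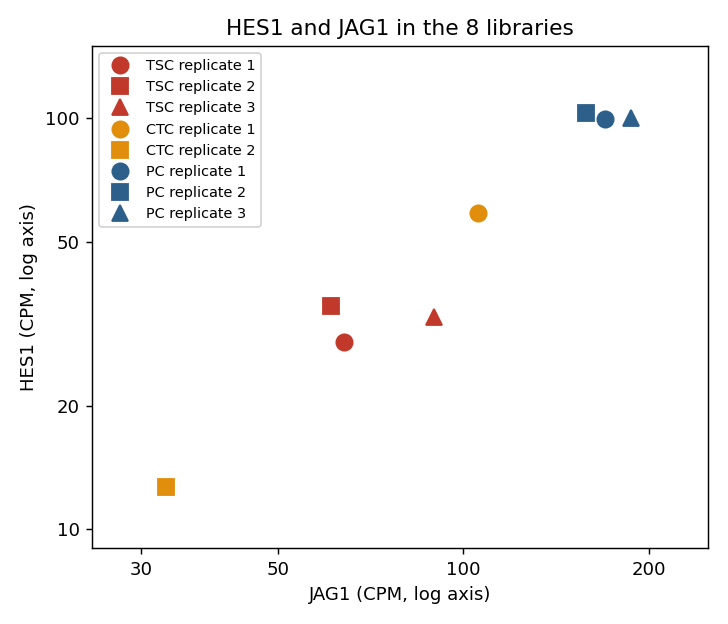
HES1 against JAG1 in the 8 libraries, both in CPM on log axes, with colour for the group and symbol shape for the replicate number. PC libraries sit at the upper right (99.5 to 103 CPM of HES1), TSC libraries lower, and the CTC libraries at 58.9 and 12.7 CPM of HES1, on either side of TSC.

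The other genes of the pathway were taken from a list of 80 by role. Like the members, they were chosen with earlier results of these data known, so nothing is read from the shares or medians below. Of the 80, 61 were tested. In TSC against PC 0 were called by edgeR and 1, DTX3L, by DESeq2, which called 1.35% of all tested genes. An unadjusted p under 0.05 was found for 14 of the 61 (23%), beside 10.3% of all tested genes. The median log2 fold change was −0.12 beside 0.01 over all tested genes and −0.60 over the 8 members. In CTC against PC 4 fell (6.56% of the 61, beside 2.52% of all tested genes called lower) and 0 rose (beside 1.4%), with a median of −0.11, beside −0.04 over all tested genes and −1.11 over the 8 members. An unadjusted p under 0.05 was found for 17 (27.9%), close to the 23.6% of all tested genes. Of the 4 that fell, which include NEURL1B, DTX4 and SOX9, DTX4 alone was called with the replicate block, and 0 were called without CTC replicate 2 or without PC replicate 3. The members share PC libraries between comparisons, and so do these genes. Of other receptors and ligands 0 of 3 tested were called, with DNER, which encodes a Notch-binding membrane protein of neurons, at −1.57 ± 0.62 and DLK2, of the Delta-like family, at 1.45 ± 0.79 in TSC against PC (adjusted p = 0.406 and 0.561).

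Of genes that cut the receptor, 0 of 9 were called in TSC. ADAM10, which encodes the protease that cuts an engaged receptor first, was at 238, 228 and 173 CPM in TSC, 192 and 231 CPM in CTC and 136, 135 and 167 CPM in PC. All TSC and CTC libraries were above PC, by little in TSC replicate 3, and the difference was not called (0.54 ± 0.18 in TSC, adjusted p = 0.282). The γ-secretase subunit genes APH1A (0.49 ± 0.18, adjusted p = 0.383) and APH1B (−1.25 ± 0.70, adjusted p = 0.576) were not called either. Among 6 genes of receptor glycosylation 0 were called, and EOGT and RFNG, which encode sugar transferases acting on Notch repeats, were at 0.56 ± 0.24 and 0.55 ± 0.25 in TSC against PC (adjusted p = 0.452 and 0.468), while the Fringe gene LFNG was at −0.55 ± 0.30 (adjusted p = 0.562).

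Ligands must be taken up by their own cell to pull on the receptor. NEURL1B, a ubiquitin ligase gene of that step, fell 3.03-fold in CTC against PC (log2 −1.60 ± 0.34, adjusted p = 0.022). It was at 27.0, 15.6 and 22.6 CPM in TSC, 8.98 and 7.82 CPM in CTC and 22.1, 21.2 and 30.5 CPM in PC, so that both CTC libraries lay below all others. With the GC and length correction it was not called. NEURL1 had 0 counts in both CTC libraries, 1 to 19 in TSC and 16 to 23 in PC, and was not called by edgeR in CTC against PC (adjusted p = 0.0928). Its pooled PC level was 5.46-fold above a floor of 3 counts over the CTC group. That value covers counting error in CTC only, not the spread between libraries. It rests mostly on CTC replicate 2, since a 0 in CTC replicate 1 allows up to 2.99 CPM, above the PC libraries (1.19 to 1.93 CPM). MIB1, the other main ligase of this step, was not called (0.09 ± 0.18 in TSC and −0.11 ± 0.21 in CTC, adjusted p = 0.905 and 0.792).

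In the nucleus, 0 of 8 genes of the activation complex were called in TSC or in CTC against PC, with SNW1 at 0.26 ± 0.16, EP300 at −0.35 ± 0.24 and MAML3 at −1.22 ± 0.71 in TSC (adjusted p from 0.595 to 0.646). The corepressor genes CTBP2 and BEND6 were at 0.38 ± 0.17 and −1.27 ± 0.54 in TSC (adjusted p = 0.452 and 0.441). TLE4, a Groucho corepressor gene, had 0 to 1 counts in TSC, 10 and 16 in CTC and 0 to 6 in PC and was called higher in CTC by DESeq2 but not by edgeR. The 18 leukocyte markers summed to 36.3 to 54.7 CPM in TSC, 198 to 510 CPM in CTC and 23.5 to 29.9 CPM in PC, with 7 of the 10 tested called higher in CTC against PC and CD3E, NKG7, S100A8 and S100A9 at 0 throughout. Most of the sum in TSC and PC was CD68 and CORO1A. CD68 had 119 to 697 counts per library in TSC, 20 and 149 in CTC and 129 to 398 in PC. The 8 erythroid markers summed to 80.4 to 93.5 CPM in TSC, 247 to 331 CPM in CTC and 50.4 to 63.3 CPM in PC, with 3 called higher in CTC against PC and HBA2 at 0 throughout. HBB, a haemoglobin chain gene, had 1 to 7 counts per library in TSC, 164 and 2187 in CTC and 0 to 9 in PC. The 10 fibroblast markers summed to 11.6 to 117 CPM in TSC, 10.2 to 22.9 CPM in CTC and 37.1 to 74.6 CPM in PC. Of these markers 0 were called in any comparison of groups, and DCN and LUM were at 0 throughout. The part of blood cells in the CTC values of Notch genes was not tested, nor was that of fibroblasts in any group.

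Of 10 tested genes of turnover and inhibition 1 fell in CTC. DTX4, a Deltex ubiquitin ligase gene, was at 12.9, 23.1 and 17.2 CPM in TSC, 10.97 and 8.68 CPM in CTC and 26.6, 28.98 and 29.7 CPM in PC. Every TSC and CTC library was below PC, with log2 fold changes of −0.66 ± 0.24 in TSC (adjusted p = 0.373) and −1.61 ± 0.32 in CTC (adjusted p = 0.0171). DTX3L, a relative known for interferon responses, was at 87.8, 94.3 and 76.8 CPM in TSC, 113 and 120.3 CPM in CTC and 123, 138 and 138 CPM in PC (−0.63 ± 0.16 in TSC, adjusted p = 0.135). CCNC, the cyclin gene of the kinase that marks the Notch intracellular domain for decay, was at 0.47 ± 0.18 in TSC (adjusted p = 0.404).

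Among other targets, SOX9, a progenitor transcription factor gene of the crypt, fell 3.20-fold in CTC against PC. It was at 78.0, 211 and 197 CPM in TSC, 172 and 83.2 CPM in CTC and 312, 367 and 501 CPM in PC, with all TSC and CTC libraries below PC. The log2 fold change was −1.68 ± 0.40 in CTC (adjusted p = 0.0319) and −1.27 ± 0.33 in TSC (adjusted p = 0.135). CD44, the hyaluronan receptor gene, was at 0.49 ± 0.16 in TSC (adjusted p = 0.282), and ERBB2 at −0.32 ± 0.25 (adjusted p = 0.701). The remaining HES and HEY genes with enough counts were not called, HES2 at 0.28 ± 0.31, HES6 at 0.31 ± 0.26 and HEYL at −0.28 ± 0.31 in TSC (adjusted p from 0.731 to 0.809). HES5 and HEY2 were at 0 counts in all libraries. Of 10 genes of the secretory lineage, 6 were at 0 throughout and ATOH1, the lineage switch that HES1 represses, had 1 count in all, in PC replicate 3. GFI1, the only one of these tested, was at 3.34, 9.18 and 2.80 CPM in TSC, 0.997 and 0.286 CPM in CTC and 1.68, 2.76 and 3.58 CPM in PC (0.95 ± 0.58 in TSC, adjusted p = 0.614).

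**Figure D5:**
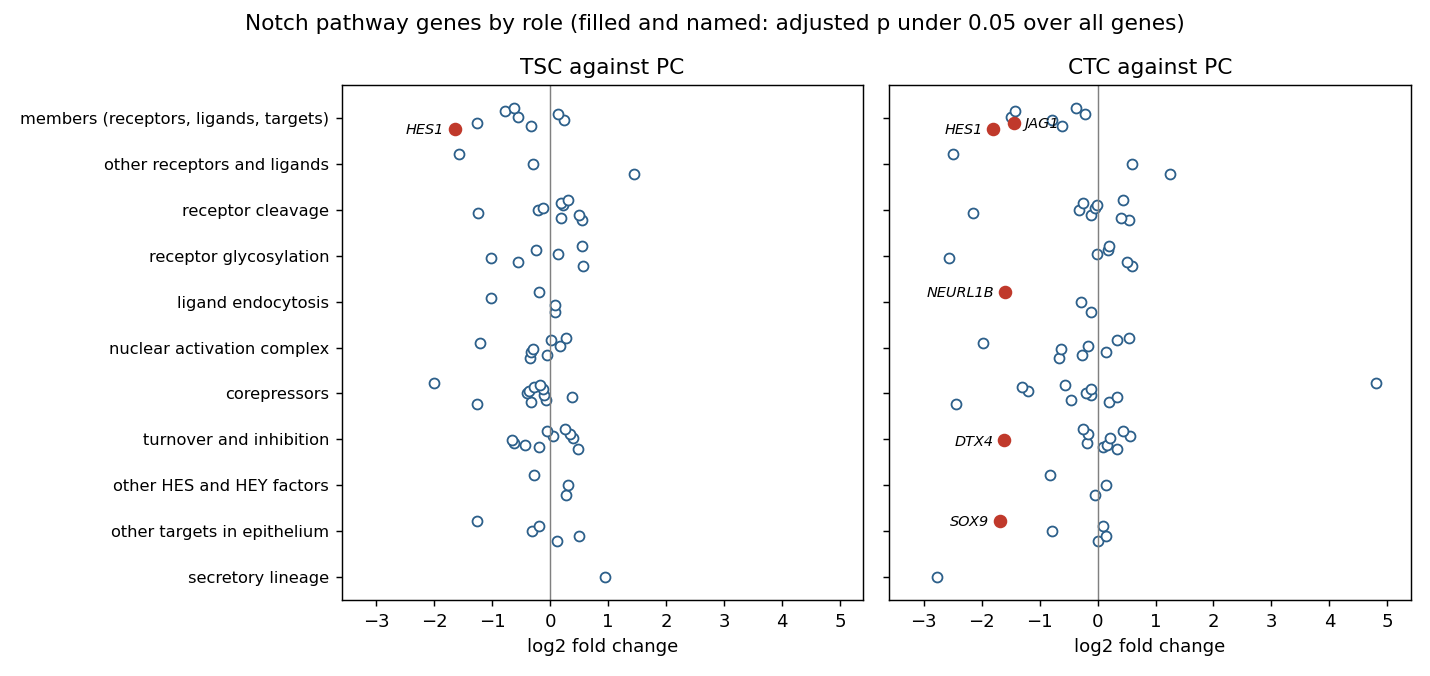
Log2 fold changes of members and other tested Notch pathway genes by role in TSC against PC and CTC against PC, with filled, named points for an adjusted p under 0.05 over all genes. HES1 is the filled point in TSC, and HES1, JAG1, NEURL1B, DTX4 and SOX9 are filled in CTC, all lower than in PC (NEURL1, with 0 counts in CTC, is left out of that panel, and 1 pathway gene is left out of both).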

How the data were processed

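Gene counts of 8 libraries were analysed. The deposited values are whole-number counts per gene, not normalized, and the submitters' processing notes name STAR 2.5.3a, featureCounts 1.5.3 and build hg38. For gene annotation, strand setting and treatment of shared or host reads: not given in the sources used here. RNA was depleted of ribosomal RNA, per the labels' protocols. Libraries were grouped by title, and no pair agreed within sampling noise (chi-square over genes).

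All libraries entered 1 edgeR 4.0.16 fit in R 4.3.3 (filterByExpr, TMM, quasi-likelihood F test, Benjamini-Hochberg over 14255 genes, called under 0.05), and the scripts were tested on simulated counts. CPM uses TMM-scaled totals of tested genes, and CPM per kilobase the GENCODE v29 exon length. The SE is the log2 fold change divided by the root of F. Promoters and coordinates are RefSeq's. The members and gene lists were chosen with earlier results of these data known. Beside the members, the text names pathway genes called in a comparison and up to 3 per role with the smallest p in TSC against PC. Genes named outside this rule (DLL3, TLE4, HES5, HEY2, ATOH1) were chosen after their values were seen. A pathway gene called in CTC against PC is counted but not reported here. The alternatives were DESeq2 1.42.0 (size factors, Wald test), other count filters, 2 groups alone, a replicate block and each library left out. The GC and length correction (known for 91% of tested genes) was added after the data were seen.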

Additional observations from a re-analysis of the deposited data

How the results depend on the processing

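Using DESeq2 size factors changed no count of calls by over 1.5 times and no member's call. Counts of members called are given next for TSC against PC, CTC against PC and TSC against CTC in this order (1, 2 and 0 as reported). They were 3, 5 and 2 with no count filter, 0, 0 and 0 with the stricter filter (at least 50 counts), 2, 4 and 1 by DESeq2's Wald test, and 2, 5 and 0 with only the 2 groups. For other pathway genes (0, 4 and 0 as reported) they were 2, 11 and 5 with no filter, 0, 3 and 0 with the stricter filter, 1, 7 and 3 by DESeq2, and 0, 11 and 0 with only the 2 groups. For all genes (72, 559 and 128) they were 355, 1535 and 728 with no filter, 68, 422 and 51 with the stricter filter, 193, 1132 and 385 by DESeq2, and 128, 1409 and 82 with only the 2 groups. The GC and length correction gave 1, 2 and 0 members, 1, 6 and 0 pathway genes and 154, 758 and 140 genes, shifted the median of all genes in CTC against PC to 0.13, and turned the split of that comparison from 200 higher and 359 lower to 496 higher and 262 lower. In TSC against CTC the split was 53 higher and 75 lower, against 514 and 214 with no filter, 203 and 182 by DESeq2, 10 and 72 with only the 2 groups and 497 and 199 without TSC replicate 1. The cause of these differences was not tested. Deviations from group means correlated at −0.13 to 0.09 between same-numbered libraries and at −0.17 to 0.17 between others. With only 2 or 3 libraries per group, these values cannot tell whether libraries of the same number were paired. With the replicate block 2, 2 and 0 members, 0, 1 and 0 pathway genes and 67, 261 and 61 genes were called. Leaving out 1 library at a time gave 0 to 2, 0 to 5 and 0 to 2 members, 0 to 0, 0 to 11 and 0 to 6 pathway genes, and 10 to 153, 35 to 1575 and 36 to 696 genes. No sign of a called member was reversed. CTC replicate 1, the shallowest library, and CTC replicate 2 limit every CTC value.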
